A study of Homo sapiens with 66 samples.

Results

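NUP153 loss for 8 h was followed in 6 RNA-seq libraries of NUP153-NeonGreen-AID DLD-1 cells, chosen by their labels from the 66 libraries of the series: 3 libraries of cells treated with auxin for 8 h and 3 of untreated cells of the same line. DLD-1 is a human colorectal adenocarcinoma line. Both copies of NUP153 were tagged with the fluorescent protein NeonGreen and an auxin-inducible degron (AID), and all 6 libraries come from cells that carry these tags and express the ligase subunit TIR1 from the RCC1 locus, so that 1 mM auxin leads to destruction of the NUP153 protein. The other groups used for comparison were the same line after 2 h of auxin, and untreated and auxin-treated libraries of NUP50-NeonGreen-AID (9 h), AID-NeonGreen-TPR (8 h, the set labelled old), GAP1-NeonGreen-AID (8 h, the line in which RANGAP1 is tagged) and untagged DLD-1 cells (2 h). Each group held 3 libraries, and the same 17812 genes were tested in every comparison. Times are those of the sample titles, while the treatment text shared by all samples names shorter ones. The series holds no libraries of untagged cells after 8 h of auxin, so at 8 h the effects of auxin itself and of NUP153 loss cannot be told apart.

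NUP153 is a component of the nuclear basket, the fibrous structure on the nuclear side of the nuclear pore complex. It holds NUP50 at the pore, and together with TPR, the scaffold of the basket filaments, it takes part in transport through the pore and in contacts between the pore and chromatin. During mitosis the pore is taken apart and rebuilt, and NUP153 has roles in that reassembly and in the checkpoints that delay the end of cell division. Cells that lack it stop growing.

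Total counts of the 6 libraries lay between 34486818 and 40856156 reads assigned to genes, and levels are given below as CPM, the count of a gene scaled to a common library size, after TMM normalization. Libraries of a group differed by more than counting error, with a chi-square per degree of freedom between 6.79 and 24.9 over 9 pairs of replicates within groups of this line. Some libraries stood apart. Auxin 8 h replicate 3 had the lowest shares of snoRNA (0.469% of all CPM, against 0.706% to 0.922% in the others) and of the class misc_RNA (1.18%, against 1.64% to 1.86%). Untreated replicate 3 was the highest untreated library for several gene lists described below, and auxin 8 h replicate 1 and untreated replicate 3 had the lowest levels of the mitochondrially encoded mRNAs, with list medians of −0.74 and −0.55 (log2 against the untreated mean). The part of these differences in the results was not tested. Of 11 colorectal epithelial markers 9 passed the filter, and their summed level was 8736 to 10380 CPM in untreated and 8678 to 9601 CPM in 8 h libraries. Of 12 markers of other cell types 3 passed the filter (VWF, CD14 and COL1A1), 0 were called, and their summed level was 6.49 to 7.92 CPM in untreated and 4.94 to 6.06 CPM in 8 h libraries. Their part in the results was not tested.

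The degron acts on the NUP153 protein and leaves its gene in place, and no difference in NUP153 mRNA was detectable. NUP153 stood at 139, 147 and 122 CPM in untreated replicates 1 to 3 and at 130, 126 and 136 CPM after 8 h, so the groups overlapped, with a log2 fold change of −0.06 ± 0.08 (SE). None of the other basket genes was called, with a log2 fold change of 0.06 ± 0.06 for NUP50, −0.08 ± 0.07 for TPR and −0.09 ± 0.07 for ZC3HC1. The RNA counts do not check the loss of the protein.

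In the comparison of 8 h with untreated cells, 235 of 17812 genes (1.32%) were called, which required a Benjamini-Hochberg adjusted p under 0.05 in the quasi-likelihood test of edgeR and a fold change of 1.3 or more, or of 0.7 or less. The calls were 163 higher genes (0.915%) and 72 lower genes (0.404%). Higher genes included the transcription factors FOS and HOXB5 and 10 of 22 mitotic genes tested, and lower genes included 4 of 54 histone genes, 3 of 16 feedback genes of the EGF receptor and ERK pathway and 3 of 16 cholesterol synthesis genes. At any fold, 342 genes (1.92%) had an adjusted p under 0.05, and 2459 (13.8%) had an unadjusted p under 0.05. The values of the groups did not overlap for 3356 genes (18.8%), of which 1853 were higher (10.4%) and 1503 lower (8.44%) after 8 h.

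**Figure D1:**
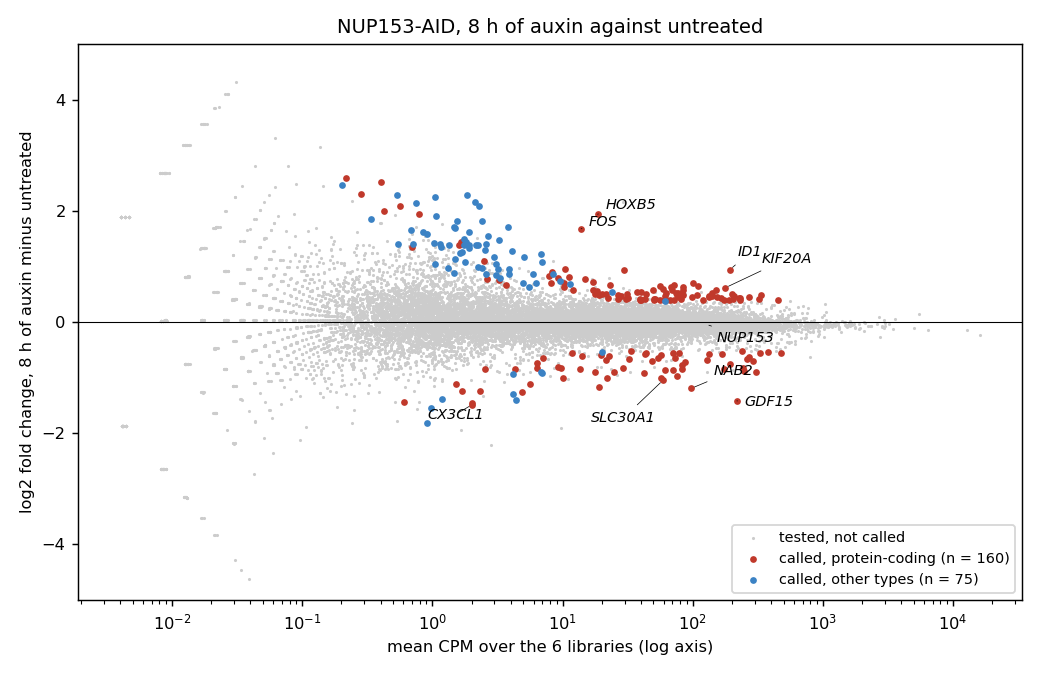
Log2 fold change of each tested gene (8 h of auxin minus untreated, 3 libraries each) against its mean CPM over the 6 libraries on a log axis. Red points are the 160 called protein-coding genes and blue points the 75 called genes of other types, which lie mostly below 10 CPM and above 0, and FOS, HOXB5, ID1, KIF20A, NUP153, GDF15, NAB2, SLC30A1 and CX3CL1 are named.

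How many genes were called depended on single libraries. Leaving out untreated replicate 1 left 16 calls and leaving out auxin 8 h replicate 2 left 17, leaving out auxin 8 h replicate 3 left 39 and untreated replicate 2 left 121, whereas leaving out auxin 8 h replicate 1 gave 447 calls. Without untreated replicate 3 the count was 190. All 235 called genes kept their direction in each of these 6 fits, 10 were called in every one of them, 8 in 5, 24 in 4, 54 in 3, 68 in 2, 62 in 1 and 9 in none. Most single genes named below therefore lose their call when 1 of these libraries is left out, most often untreated replicate 1 or auxin 8 h replicate 2 or 3.

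**Figure D2:**
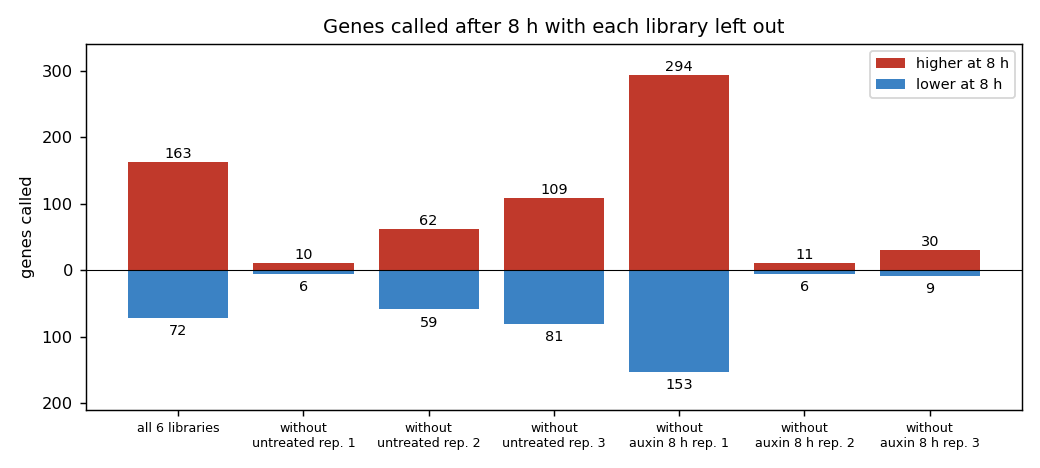
Number of genes called higher (red, above 0) and lower (blue, below 0) after 8 h of auxin with all 6 libraries and with each library left out in turn. The count runs from 16 without untreated replicate 1 to 447 without auxin 8 h replicate 1.

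The 10 genes called whichever library was left out were FOS, ABCG2, EXOSC6, CDCA8 and KIF20A, which rose, and SLC30A1, KLF9, FOSL2, ARHGEF3 and PDP1, which fell. FOS (ENSG00000170345, chr14:75278826-75282230), a subunit of the transcription factor AP-1, stood at 8.64, 4.99 and 6.27 CPM in untreated and at 19.1, 21.8 and 22.6 CPM in 8 h libraries. All 3 treated libraries lay above every untreated one, and the log2 fold change was 1.68 ± 0.17 (adjusted p = 0.00501, edgeR). ABCG2, an efflux transporter of drugs and other small molecules, was at 6.77, 7.34 and 7.21 CPM untreated and 13.5, 14.5 and 13.4 CPM at 8 h, a log2 fold change of 0.96 ± 0.10 (adjusted p = 0.00501, edgeR). Its groups were separate and each was narrow. EXOSC6, an intronless gene for a subunit of the RNA exosome, rose from 54.7, 54.3 and 52.1 CPM to 84.4, 86.3 and 77.4 CPM (log2 fold change 0.62 ± 0.07).

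Among the genes that fell in every such fit, SLC30A1, which encodes a transporter that carries zinc out of the cell, had the largest change. It stood at 89.8, 66.7 and 83.0 CPM in untreated and at 38.6, 39.9 and 37.5 CPM in 8 h libraries, a log2 fold change of −1.05 ± 0.10 (adjusted p = 0.00501, edgeR). The treated libraries were close to each other and all below the untreated ones. KLF9, a zinc finger transcription factor, went from 74.9, 72.3 and 90.5 CPM to 41.9, 42.9 and 45.3 CPM (log2 fold change −0.87 ± 0.09). FOSL2, another AP-1 subunit, went from 90.6, 84.2 and 97.7 CPM to 50, 45.7 and 54.5 CPM (−0.86 ± 0.08), in the opposite direction to FOS. PDP1, a phosphatase that activates pyruvate dehydrogenase, and ARHGEF3, a guanine nucleotide exchange factor, fell by 0.67 and 0.70 on the log2 scale.

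**Figure D3:**
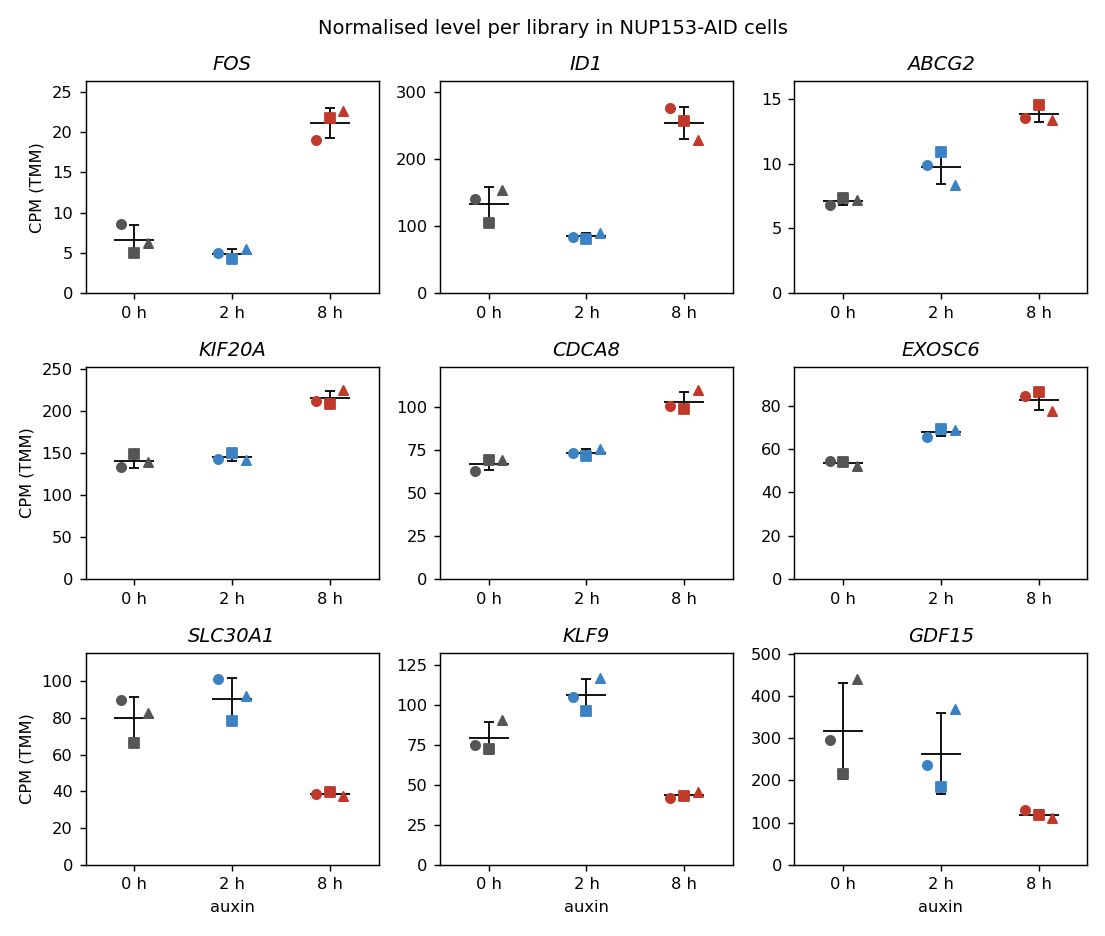
Normalised level (CPM after TMM) of 9 genes in each NUP153-AID library at 0, 2 and 8 h of auxin. Circles, squares and triangles are replicates 1, 2 and 3, the horizontal bar is the mean and the error bar the SD of 3 libraries. FOS, ID1, ABCG2, KIF20A, CDCA8 and EXOSC6 lie higher and SLC30A1, KLF9 and GDF15 lower at 8 h than in untreated cells, with no overlap.

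Of 22 genes of mitosis tested, 10 were called higher and 0 lower, the values of 21 did not overlap between the groups and all of these were higher, and the median log2 fold change of the 22 was 0.38 against 0 over all tested genes. Over all tested genes 0.915% were called higher and 10.4% were higher without overlap. The list median was 0.35, 0.40 and 0.37 in 8 h replicates 1 to 3 (log2 against the untreated mean). The number of called members moved with the libraries, from 2 without untreated replicate 1 or without auxin 8 h replicate 2, and 5 without auxin 8 h replicate 3, to 11 without auxin 8 h replicate 1, while the median stayed between 0.35 and 0.40. In RNA from whole cultures, a larger share of cells in mitosis and more of these transcripts per cell cannot be told apart.

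The promoters of many mitotic genes hold a short element called CHR, bound by the DREAM and MYB-MuvB complexes that keep such genes off outside the late cell cycle and on within it. RefSeq promoter sequences (GRCh38.p14) were at hand for 20 of the 22 genes and 9 of the 10 called ones. The letters TTTGAA or TTCGAA, on either strand, in a window of 250 bases before to 50 after the start were found in 15 of the 20 (75%), in 5 of the 9 called members, and in 11.4% of the promoters of all tested genes with an entry and 16.6% of all 27305 promoters. Members that were not called carry the letters too, among them CCNB2, KIF11, MKI67, DLGAP5 and ASPM, so the letters are not particular to the called genes. Only the 5 called genes with these letters are shown, with the letters in capitals in the 150 bases before the start, read on the strand of the gene: PLK1 (chr16:23678739-23678888, plus strand), BUB1B (chr15:40160919-40161068, plus), CDC20 (chr1:43358831-43358980, plus), CCNF (chr16:2429297-2429446, plus) and HMMR (chr5:163460482-163460631, plus).
PLK1: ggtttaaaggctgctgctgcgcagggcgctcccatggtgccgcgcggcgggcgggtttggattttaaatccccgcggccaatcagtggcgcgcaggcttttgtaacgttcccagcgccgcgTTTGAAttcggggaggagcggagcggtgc
BUB1B: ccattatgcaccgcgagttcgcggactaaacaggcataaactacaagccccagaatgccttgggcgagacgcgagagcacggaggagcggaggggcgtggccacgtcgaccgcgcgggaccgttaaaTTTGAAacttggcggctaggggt
CDC20: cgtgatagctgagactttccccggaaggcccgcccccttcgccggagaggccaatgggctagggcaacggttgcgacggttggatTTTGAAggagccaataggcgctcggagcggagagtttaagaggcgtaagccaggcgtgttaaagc
CCNF: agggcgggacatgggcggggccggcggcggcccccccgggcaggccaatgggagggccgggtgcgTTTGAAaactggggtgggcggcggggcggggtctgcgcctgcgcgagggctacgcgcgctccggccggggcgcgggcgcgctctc
HMMR: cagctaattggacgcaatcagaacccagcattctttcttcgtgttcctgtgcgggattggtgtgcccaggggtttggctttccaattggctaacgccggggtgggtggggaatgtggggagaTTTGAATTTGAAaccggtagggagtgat
In 4 of these windows the letters stand once, and in HMMR a pair of copies stands side by side. A match is a description of the letters and not of a bound site.

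Each of these genes acts at a different step of cell division. PLK1, a kinase that drives entry into and passage through mitosis, stood at 57.6, 62.7 and 62.9 CPM untreated and 87.7, 80.3 and 94.4 CPM at 8 h, a log2 fold change of 0.52 ± 0.08 (adjusted p = 0.012, edgeR). BUB1B, a kinase-like protein of the spindle checkpoint, stood at 153, 153 and 148 CPM and at 198, 205 and 189 CPM (log2 fold change 0.39 ± 0.06). CDC20, the activator of the anaphase-promoting complex, stood at 269, 294 and 271 CPM and at 358, 380 and 428 CPM (0.49 ± 0.08). In each of the 3 genes the lowest treated library was above the highest untreated one.

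CCNF, a cyclin F that belongs to a ubiquitin ligase, rose from 112, 129 and 122 CPM to 184, 184 and 176 CPM, with a log2 fold change of 0.58 ± 0.07 (adjusted p = 0.00749, edgeR). HMMR, a spindle protein that binds hyaluronan, rose from 116, 109 and 115 CPM to 153, 166 and 148 CPM (0.46 ± 0.07). The largest change of the list was in KIF20A (chr5:138178719-138187723), a kinesin of the central spindle needed for cytokinesis, from 133, 149 and 140 CPM to 212, 209 and 225 CPM (0.62 ± 0.07, adjusted p = 0.00501, edgeR). The other called members were the cyclins CCNA2 (log2 fold change 0.44) and CCNB1 (0.40), the spindle assembly factor TPX2 (0.44) and the kinetochore motor CENPE (0.52). CDK1, the kinase these cyclins activate, was the exception, at 193, 185 and 213 CPM untreated and 201, 210 and 180 CPM at 8 h, with overlapping groups and a log2 fold change of −0.00 ± 0.08.

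Genes of S phase, the replication step before mitosis, were not called. None of the 13 tested was called in either direction, and their median log2 fold change was −0.13, 10 of them being below 0. CDC6, which loads the replicative helicase on DNA, had the largest change of this list, from 273, 249 and 246 CPM to 180, 199 and 180 CPM, a log2 fold change of −0.46 ± 0.07 (adjusted p = 0.0134, edgeR) that did not reach the fold required for a call. The groups were separate for CDC6 and for CCNE2, PCNA and MCM5 in the same direction, and for TYMS and RRM2 in the other. Over all tested genes they were separate for 18.8%.

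Replication-dependent histone genes have mRNAs that lack a poly(A) tail and accumulate in S phase. Of 54 tested, 0 were called higher and 4 lower (H4C2, H4C5, H4C13 and H4C16), against 0.404% called lower over all tested genes. Of these 54 histone genes 50 had a log2 fold change below 0, and the values of 41 were lower without overlap (8.44% over all tested genes), with a median of −0.33. Their summed level was 13880, 13390 and 12640 CPM in untreated libraries and 10630, 10540 and 9853 CPM after 8 h. All 3 treated sums lay below the untreated ones. H4C2 (chr6:26026896-26027283) stood at 414, 400 and 352 CPM and at 276, 284 and 232 CPM (log2 fold change −0.56 ± 0.09, adjusted p = 0.017, edgeR). H4C5 fell by 0.52, H4C13 by 0.58 and H4C16 by 0.65 on the log2 scale, and reads of near-identical histone copies can be split among them, so single members are uncertain. The number called was 0 without untreated replicate 1, without auxin 8 h replicate 2 or without auxin 8 h replicate 3, 1 without untreated replicate 2, and 10 without untreated replicate 3.

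**Figure D4:**
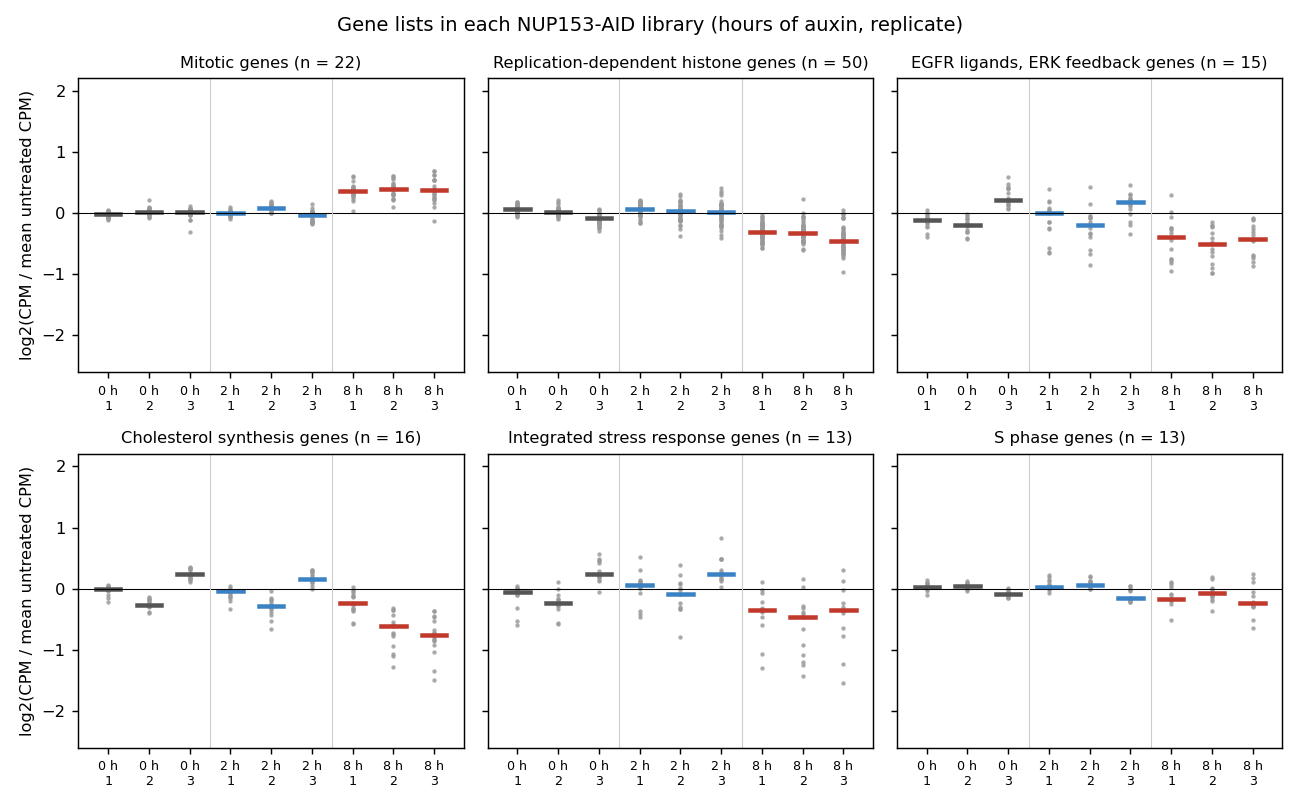
Each grey point is a gene with a mean of at least 1 CPM, plotted as log2 of its CPM in one library over its untreated mean, in the 9 NUP153-AID libraries ordered by hours of auxin and replicate, and each bar is the median of the list in that library. Mitotic genes lie above 0 in each 8 h library (medians 0.35 to 0.40) and histone, cholesterol synthesis, stress response and ERK feedback genes below 0, while untreated replicate 3 is the highest untreated library for the last 3 of these lists.

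Immediate early genes, which cells switch on within minutes of a growth signal, moved in both directions. Of 14 tested, FOS and FOSB were called higher and IER3 lower, and the median log2 fold change was 0.11. Over all tested genes 0.915% were called higher and 0.404% lower. FOSB, a close relative of FOS, stood at 0.776, 0.712 and 1.16 CPM untreated and 1.65, 2.86 and 2.45 CPM at 8 h (1.39 ± 0.27, adjusted p = 0.0319, edgeR). IER3, a survival gene induced by stress and growth factors, went from 13.1, 9.41 and 18.0 CPM to 6.50, 7.18 and 6.49 CPM (−1.0 ± 0.20, adjusted p = 0.0355, edgeR). The remaining 11 were not called, among them EGR1 (log2 fold change 0.12 ± 0.16) and JUN (0.43 ± 0.21).

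Feedback genes of the EGF receptor and ERK pathway encode ligands of the receptor and phosphatases or Sprouty proteins that damp the pathway that induces them. Of 16 tested, 0 were called higher and 3 lower (DUSP6, SPRY1 and AREG), 14 were below 0 and the values of 11 were lower without overlap, with a median log2 fold change of −0.41. Over all tested genes 0.404% were called lower and 8.44% were lower without overlap. DUSP6, the phosphatase that inactivates ERK, stood at 276, 244 and 450 CPM untreated and 167, 182 and 178 CPM at 8 h (−0.88 ± 0.18, adjusted p = 0.0425, edgeR). SPRY1, an inhibitor of receptor tyrosine kinase signalling, stood at 12.1, 11.6 and 13.6 CPM and at 7.23, 6.30 and 7.62 CPM (−0.82 ± 0.12, adjusted p = 0.0107, edgeR). AREG, the ligand amphiregulin, stood at 318, 288 and 468 CPM and at 214, 230 and 221 CPM (−0.69 ± 0.15, adjusted p = 0.0466, edgeR). For DUSP6 and AREG untreated replicate 3 was far above the other untreated libraries, and without that library the list had 2 calls and a median of −0.25, against 0 calls without untreated replicate 1 or auxin 8 h replicate 2 and 1 without auxin 8 h replicate 3.

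Cholesterol synthesis genes, which the transcription factor SREBP2 controls, were below 0 in 16 of 16 tested, with a median log2 fold change of −0.52, and 3 of them were called lower, against 0.404% of all tested genes. HMGCS1, an enzyme of the early steps of the pathway, went from 305, 271 and 352 CPM to 210, 162 and 151 CPM (−0.83 ± 0.13, adjusted p = 0.0149, edgeR). Its treated libraries were all below the untreated ones, auxin 8 h replicate 1 was the highest of them, and the list median was −0.24 in that library against −0.61 and −0.76 in replicates 2 and 3. Without it 11 of the 16 genes were called lower, without untreated replicate 3 the count was 2, and without untreated replicate 1, auxin 8 h replicate 2 or auxin 8 h replicate 3 it was 0.

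Genes of the integrated stress response, which cells switch on through ATF4 when amino acids are short or proteins misfold, were below 0 in 12 of 13 tested. Their median log2 fold change was −0.37, and 1 was called lower, against 0.404% of all tested genes. GDF15 (chr19:18374731-18389176), a secreted stress cytokine, stood at 297, 216 and 441 CPM untreated and 130, 118 and 110 CPM at 8 h. Every treated library was below every untreated one, the untreated libraries spread widely, and the log2 fold change was −1.42 ± 0.20 (adjusted p = 0.0107, edgeR). ATF4 itself was at 602, 554 and 712 CPM and at 496, 470 and 484 CPM (−0.37 ± 0.09), which did not pass. Leaving out auxin 8 h replicate 1 gave 3 calls, and leaving out untreated replicate 1, auxin 8 h replicate 2 or auxin 8 h replicate 3 gave 0.

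Single genes of other signalling lists were called. ID1 (chr20:31605283-31606515), an inhibitor of helix-loop-helix transcription factors that BMP signals induce, stood at 140, 104 and 153 CPM in untreated and 276, 256 and 229 CPM in 8 h libraries (0.94 ± 0.13, adjusted p = 0.00968, edgeR). It was the only call among 11 genes of TGF-beta and BMP feedback, whose median was −0.04, and ID2 and ID3 had log2 fold changes of −0.23 and −0.32. AMOTL2, a target and inhibitor of the coactivator YAP, went from 255, 214 and 258 CPM to 127, 140 and 163 CPM (−0.76 ± 0.10, adjusted p = 0.00968, edgeR) and was the only call among 11 YAP/TEAD targets, with a median of −0.23. Over all tested genes 1.32% were called in either direction. None of the 14 p53 targets was called. The largest change among them was in the cell cycle inhibitor CDKN1A, at 11.1, 8.70 and 26.5 CPM untreated and 6.39, 2.96 and 3.08 CPM at 8 h, a log2 fold change of −1.90 ± 0.42 that missed the threshold (adjusted p = 0.0521, edgeR).

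No member was called among the other nucleoporins (29 tested, median log2 fold change −0.01), the Ran cycle and transport receptors (30, 0.04), mRNA export factors (17, −0.00), SR proteins and CLK kinases (17, −0.11), heat shock genes (13, 0.00), interferon-stimulated genes (15, −0.16), NF-kappaB targets (12, −0.00), Wnt targets (16, −0.09) or mitochondrially encoded mRNAs (13, 0.04). A gene that was not called is not shown to be unchanged.

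Among protein-coding genes that averaged 50 counts or more over the 6 libraries, the largest increases included those of FOS, HOXB5 and SNAI1. HOXB5 (chr17:48591257-48593779), a homeobox gene that sets position along the body axis, stood at 10.1, 8.28 and 4.73 CPM untreated and 16.4, 40.3 and 31.8 CPM at 8 h (1.94 ± 0.32, adjusted p = 0.0191, edgeR). The lowest treated library was replicate 1, which was nearer to the untreated libraries than the others were. SNAI1, a repressor of epithelial genes, stood at 1.5, 1.84 and 1.44 CPM and at 2.77, 3.54 and 3.89 CPM (1.09 ± 0.19). GATA2 and ZNF503, both zinc finger transcription regulators, had log2 fold changes of 0.81 and 0.80.

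Further genes of this group have other roles. RASSF1, a scaffold of the Hippo pathway and a tumour suppressor, went from 21.8, 21.8 and 17 CPM to 30.4, 46.8 and 39.1 CPM (0.94 ± 0.15, adjusted p = 0.017, edgeR). KCNJ11, a subunit of the ATP-sensitive potassium channel, went from 5.94, 6.51 and 4.53 CPM to 10.7, 9.43 and 10.0 CPM (0.83 ± 0.14). TSPYL4, an intronless gene of the nucleosome assembly protein family, went from 6.74, 6.17 and 4.35 CPM to 9.58, 10.3 and 12.3 CPM (0.90 ± 0.17). The groups were separate for all 3. RASSF1 was also called higher after NUP50 loss (log2 fold change 0.79) and RANGAP1 loss (2.45), and was not called after TPR loss (−0.43). P2RX5-TAX1BP3 is annotated as a readthrough of neighbouring genes and shares their exons, so its log2 fold change of 1.44 is uncertain.

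Among protein-coding genes above the same limit of 50 counts, the largest decreases included those of CX3CL1, PRDM1, EDN1 and PTGS2. CX3CL1, a membrane-bound chemokine, stood at 2.97, 2.85 and 3.14 CPM untreated and 1.33, 0.904 and 0.959 CPM at 8 h (−1.49 ± 0.20, adjusted p = 0.00919, edgeR). PRDM1, a transcriptional repressor, stood at 3.21, 2.14 and 3.46 CPM and at 1.02, 0.855 and 1.35 CPM (−1.45 ± 0.25). EDN1, the vasoconstrictor endothelin, stood at 2.84, 3.17 and 3.74 CPM and at 0.887, 1.83 and 1.38 CPM (−1.24 ± 0.25). No treated library of these genes reached an untreated one. PTGS2, the inducible cyclooxygenase, went from 2.57, 2.01 and 2.55 CPM to 0.783, 1.22 and 1.02 CPM (−1.23 ± 0.22).

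NAB2 (chr12:57089043-57095476), a corepressor of EGR factors, stood at 125, 108 and 174 CPM untreated and 62.0, 60.8 and 54.9 CPM at 8 h (−1.19 ± 0.15, adjusted p = 0.00861, edgeR). MXD1, an antagonist of MYC, stood at 26.2, 19.8 and 33.0 CPM and at 12.3, 10.5 and 12.4 CPM (−1.17 ± 0.17), and ISX, an intestine-specific homeobox gene, at 7.79, 6.29 and 9.23 CPM and at 4.59, 3.40 and 2.77 CPM (−1.11 ± 0.20). Both were lower in every treated library. PDE9A (−1.26 ± 0.27), a phosphodiesterase of cyclic GMP, CDH7 (−1.12 ± 0.20), a cadherin, and DOK7 (−1.01 ± 0.18), an adaptor of a muscle receptor kinase, completed the named decreases.

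Called genes differed by type. Of the 163 higher genes, 97 were protein-coding, 54 were long noncoding RNAs (lncRNAs) and 6 were unclassified transcripts (TEC), so lncRNAs made up 33.1% of them against 16.2% of all tested genes. Of the 72 lower genes, 63 were protein-coding, 3 were lncRNAs and 5 were small nuclear RNAs (snRNAs). By type, 1.87% of tested lncRNAs and 0.738% of protein-coding genes were called higher. The median log2 fold change over all 2884 tested lncRNAs was 0.04, and these genes were of low abundance, with a median of 0.445 CPM in untreated cells against 27.4 CPM for protein-coding genes.

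The position of the called lncRNAs was set against that of all tested lncRNA and TEC genes. Of the 60 higher lncRNA and TEC genes, 35 (58.3%) overlapped a protein-coding gene on the other strand, against 70.8% of 3041 tested, 10 (16.7%) started within 1000 bp of one that runs the other way, against 11.2%, and 18 (30%) overlapped no protein-coding gene, against 19.6%. Of the 10 tested partners of the divergent ones 0 were called, against 9 of 333 tested partners of all divergent ones. The kit keeps strand, but whether the counting used it is not given in the sources used here, so reads of a gene and of its antisense partner cannot be told apart.

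Among called lncRNAs that averaged 50 counts or more, those with the largest increases were ENSG00000241269 and ENSG00000188365. ENSG00000188365 (chr7:5419846-5423122) stood at 1.04, 0.884 and 0.683 CPM untreated and 2.87, 4.25 and 3.98 CPM at 8 h (2.09 ± 0.23, adjusted p = 0.00501, edgeR). ENSG00000241269 (chr7:5419827-5420767) overlaps it on the same strand, so their reads may be shared, and had a log2 fold change of 2.15 ± 0.29. Both lie opposite TNRC18, whose own log2 fold change was 0.08. After these values were seen, 3 more called lncRNAs were found nearby, LINC02983 (0.87 ± 0.16), ENSG00000272953 (1.69 ± 0.26) and LINC03073 (1.08 ± 0.19), which overlap no protein-coding gene. The TEC transcript ENSG00000279901 (chr16:2683106-2684764), inside KCTD5 on the same strand, stood at 0.696, 0.835 and 0.329 CPM and at 1.91, 3.69 and 3.53 CPM (2.29 ± 0.34, adjusted p = 0.0134, edgeR).

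Of 45 snRNA genes tested 5 were called lower (11.1%), against 0.404% of all tested genes, and these are variant copies of U1 and U2, RNAs of the spliceosome. Summed over the 45, the level was 0.0527%, 0.0480% and 0.0436% of all CPM in untreated and 0.0541%, 0.0556% and 0.0469% in 8 h libraries, so the groups overlapped. RNU2-63P stood at 8.59, 6.39 and 4.0 CPM untreated and at 1.46, 3.03 and 2.68 CPM (−1.40 ± 0.31, adjusted p = 0.0498, edgeR), and RNVU1-22 at 7.57, 6.04 and 4.02 CPM and at 1.80, 2.91 and 2.48 CPM (−1.29 ± 0.25, adjusted p = 0.03, edgeR). In both, the treated libraries were lower without overlap, and untreated replicate 3 was nearest to them. RNVU1-4, RNVU1-21 and RNVU1-6 had log2 fold changes of −1.81, −1.38 and −0.91. Copies of these genes are nearly identical, so reads may be placed on any of them. The median over the 45 was −0.29. The lncRNA ENSG00000270022, opposite CYB5R3, was also lower, with a log2 fold change of −0.94 ± 0.16.

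Intronless protein-coding genes made up a larger share of the higher calls than of the genes tested. Of 221 with a single exon, 10 were called higher (4.52%) and 3 lower, all of these histones, against 87 higher of 12916 with more exons (0.674%). The median log2 fold change of the 221 was 0.03. The higher ones included EXOSC6, TSPYL4, HEXIM1 and FEM1A. HEXIM1, which holds the elongation factor P-TEFb inactive, stood at 49.1, 39.8 and 43.0 CPM untreated and 64.7, 66.8 and 74.0 CPM at 8 h (0.64 ± 0.09, adjusted p = 0.0105, edgeR). FEM1A, a substrate receptor of a ubiquitin ligase, stood at 7.17, 6.80 and 4.83 CPM and at 9.42, 10.4 and 10.7 CPM (0.70 ± 0.15, adjusted p = 0.0484, edgeR). Higher calls in this list fell to 1 without auxin 8 h replicate 2 or 3, 2 without untreated replicate 1 and 4 without untreated replicate 2. Of 511 zinc finger genes 4 were called higher and 3 lower, with a median of −0.03, against 0.915% called higher and 0.404% called lower over all tested genes.

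Whether the changes were present at 2 h was asked with the libraries of the same line after 2 h of auxin. Against untreated cells, 4 genes (0.0225%) were called at 2 h. The 8 h and 2 h comparisons share the untreated libraries, so their values are set side by side: over the 163 genes called higher at 8 h the median log2 fold change was 0.07 at 2 h and 0.74 at 8 h, and over the 72 lower genes it was −0.06 and −0.83. The direct comparison of 8 h with 2 h of auxin called 365 genes (2.05%), 229 higher (1.29%) and 136 lower (0.764%). It shares the 8 h libraries with the comparison against untreated cells. The count was 172 without auxin 2 h replicate 1, 196 and 205 without auxin 8 h replicates 2 and 3, and 548 without auxin 8 h replicate 1.

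FOS stood at 4.95, 4.21 and 5.48 CPM at 2 h, and its log2 difference between 8 h and 2 h was 2.12 ± 0.18 (adjusted p = 9.2e-05, edgeR). ID1 stood at 84.1, 81.0 and 89.6 CPM at 2 h, below the untreated libraries, and differed by 1.58 ± 0.12 (adjusted p = 4.94e-05, edgeR). Of the 22 mitotic genes 9 were called higher at 8 h than at 2 h, with a median of 0.37, and the list median against untreated was 0.01 at 2 h. Medians at 2 h were 0.04 for histone genes, 0.01 for ERK feedback genes, −0.06 for cholesterol synthesis genes and 0.06 for stress response genes.

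Some genes were higher at 2 h than at either other time. MB21D2 stood at 73.9, 72.7 and 69.5 CPM in untreated, 120, 118 and 124 CPM in 2 h and 50.4, 62.0 and 59.5 CPM in 8 h libraries (8 h minus 2 h −1.08 ± 0.07, adjusted p = 2.59e-05, edgeR). PARD6B, a polarity gene, stood at 107, 87.5 and 122 CPM, at 174, 148 and 160 CPM and at 55.8, 61.1 and 60 CPM (−1.45 ± 0.11). The lncRNA LINC00511 stood at 24.5, 23.9 and 23.6 CPM, at 38.5, 34.0 and 41.9 CPM and at 16.8, 16.9 and 16.1 CPM (−1.20 ± 0.08). In untagged DLD-1 cells (auxin 2 h against untreated) the log2 fold changes were −0.61 for MB21D2, −0.54 for PARD6B and −0.31 for LINC00511, none of them called. In the NUP153-AID line the 2 h libraries of these 3 genes were the highest and the 8 h libraries the lowest, without overlap. EGR1, a transcription factor of the immediate early class, took the opposite course, at 20.1, 16.2 and 19.8 CPM, 11, 10.2 and 10.7 CPM and 16.6, 18.6 and 25.8 CPM.

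Targets of the aryl hydrocarbon receptor, a sensor of aromatic compounds, were among the genes with the largest differences between 8 h and 2 h (8 h minus 2 h −2.48 ± 0.43 for CYP1A1 and −2.28 ± 0.10 for TIPARP). CYP1A1, a cytochrome P450, stood at 10.3, 19.0 and 2.63 CPM untreated, 251, 277 and 274 CPM at 2 h and 28.9, 60.2 and 54.1 CPM at 8 h. TIPARP, a polymerase that represses the receptor, stood at 85.9, 87.2 and 88.9 CPM, at 290, 252 and 314 CPM and at 51.1, 67.4 and 57.1 CPM. In untagged DLD-1 cells, libraries labelled auxin 2 h against untreated gave 10 called genes (0.0561%), all lower, with log2 fold changes of −3.84 for CYP1A1 and −1.76 for TIPARP, opposite in sign to the 2 h libraries of the NUP153-AID line. The labels of the DLD-1 libraries were used as given and the direction of these values rests on them, and whether they are exchanged was not tested. Genes called there were removed from the calls against untreated cells, which took out 3 genes at 8 h, and without this step 238 genes were called, 165 higher and 73 lower. FGF9 (8 h minus 2 h −2.28 ± 0.28), PROX1 (−1.74 ± 0.16) and PRDM1 (−2.71 ± 0.26) were also lower at 8 h than at 2 h, and their log2 fold changes in the DLD-1 libraries, −1.12, −1.16 and −1.25, were not called.

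The response was compared with loss of NUP50, which NUP153 holds at the pore. In their own comparison, NUP50-AID cells gave 65 calls after 9 h (0.365%), 39 higher (0.219%) and 26 lower (0.146%). Of the genes called after NUP153 loss, 8 of the 163 higher ones were called in NUP50-AID cells, 6 of them higher, and 2 of the 72 lower ones, both lower, which together are 4.26% of the NUP153 calls and 15.4% of the NUP50 calls. The median log2 fold change in NUP50-AID cells was 0.25 over the 163 and −0.19 over the 72. A test of the difference between the responses by an interaction term called 50 genes (0.281%), 35 with a larger value after NUP153 loss (0.196%) and 15 with a smaller one (0.0842%). Of the 235 genes, 20 were among them. Without untreated NUP153-AID replicate 1, untreated NUP50-AID replicate 2 or NUP50-AID auxin 9 h replicate 2 the difference was called for 32, 30 and 32 genes. Times differ, 8 h against 9 h.

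Among the genes called after NUP153 loss that differed from NUP50 loss were LIF, PARD6B, TSPYL4 and the lncRNA HERPUD2-AS1. LIF, a cytokine that maintains stem cells, stood at 106, 89.0 and 108 CPM in untreated NUP153-AID cells and 41.0, 54.5 and 59.5 CPM at 8 h (−0.97 ± 0.13), against a log2 fold change of 0.31 in NUP50-AID cells (adjusted p of the difference 0.00535, edgeR). PARD6B had values of −0.84 and 0.13 and TSPYL4 of 0.90 and −0.40. Of the 16 cholesterol synthesis genes 3 were called lower after NUP153 and 5 after NUP50 loss, with medians of −0.52 and −0.63, and HMGCS1 stood at −0.83 and −0.88, a difference of 0.03 (adjusted p = 1, edgeR). Mitotic genes had a median of 0.12 and 0 calls in NUP50-AID cells. Of these only HMMR differed between the lines, at 0.46 and −0.14 (adjusted p of the difference 0.0224, edgeR).

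After loss of TPR for 8 h, AID-TPR cells had 639 calls (3.59%), 219 higher (1.23%) and 420 lower (2.36%), and the difference from NUP153 loss was called for 1820 genes (10.2%), 915 with a larger value after NUP153 loss (5.14%) and 905 with a smaller one (5.08%). With library sizes alone that split was 1684 against 319, since this scaling shifts the median of all genes by 0.18 (log2). Leaving out any 1 of the 12 libraries but untreated AID-TPR replicate old3 moved the count by over 1.5 times, to between 701 and 1192, and to 4088 without AID-TPR auxin 8 h replicate old2. Of the 72 genes that fell after NUP153 loss, 16 were called in AID-TPR cells and all 16 were higher there, and the difference was called for 52 of the 72. Of the 163 that rose, 18 were called in AID-TPR cells, 4 higher and 14 lower, and the difference was called for 73. The shared genes were 14.5% of the NUP153 calls and 5.32% of the TPR calls.

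Signalling genes were among those that differed. GDF15 changed by −1.42 (log2) when NUP153 was lost and by 2.17 when TPR was lost, AREG by −0.69 and 1.70, DUSP6 by −0.88 and 1.67, and IER3 by −1.0 and 2.14. The adjusted p of the difference was 3.61e-05, 3.61e-05, 0.000858 and 0.000645 (edgeR). HOXB5 (1.94 and −0.59), KCNJ11 (0.83 and −1.16) and TSPYL4 (0.90 and −1.49) differed the other way. FOS rose in both lines, by 1.68 and 2.85 (adjusted p of the difference 0.0158, edgeR). Single-exon genes had a median of −0.65 with 50 called lower after TPR loss, against 0.03 and 3 after NUP153 loss. Mitotic genes had a median of 0.17 and 0 calls after TPR loss, against 0.38 and 10 called higher after NUP153 loss. No difference between the lines was called for KIF20A, CCNF or CENPE, and CENPE stood at 0.60 after TPR and 0.52 after NUP153 loss.

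RANGAP1 activates the GTPase of Ran, and its loss stops transport through the pore that depends on Ran. After 8 h it gave 2645 calls (14.8%), 1466 higher (8.23%) and 1179 lower (6.62%), and the difference from NUP153 loss was called for 1861 genes (10.4%), 806 with a larger value after NUP153 loss (4.53%) and 1055 with a smaller one (5.92%), a split that turned to 1128 and 691 with library sizes alone. Of the 163 higher genes 38 were called in that line, 26 higher, and of the 72 lower ones 28, 24 of them lower, which together are 28.1% of the NUP153 calls and 2.5% of the RANGAP1 calls. FOS and ID1 went the other way, at 1.68 and −1.35 (adjusted p of the difference 8.74e-06, edgeR) and at 0.94 and −1.14 (6.51e-05). The libraries of that line hold reads on some genes that are at or near 0 in the NUP153-AID libraries. Histone genes had a median of −0.60 and 33 calls, all lower, in that line, and H4C2 stood at −0.56 after NUP153 and −0.82 after RANGAP1 loss (adjusted p of the difference 0.273, edgeR).

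**Figure D5:**
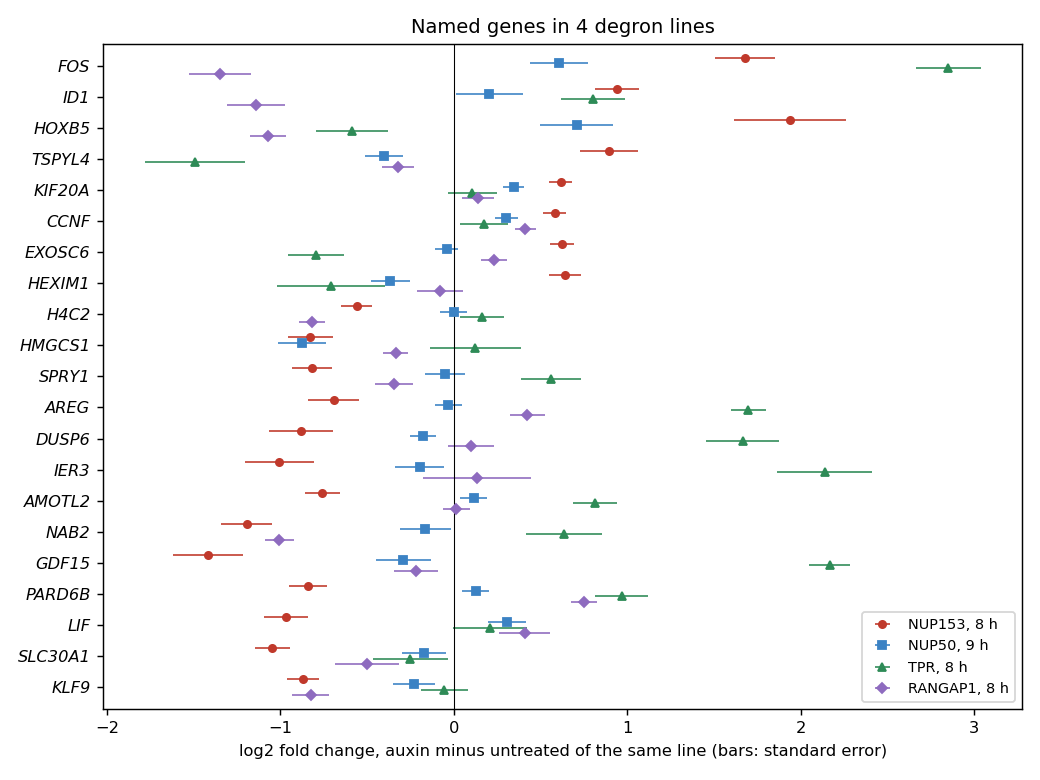
Log2 fold change of 21 genes (auxin minus untreated of the same line) after loss of NUP153 for 8 h, NUP50 for 9 h, TPR for 8 h and RANGAP1 for 8 h, with standard errors as bars and 3 libraries in each group. After TPR loss GDF15, IER3, DUSP6 and AREG lie to the right of 0 and after NUP153 loss to the left, while FOS lies to the right in both. After TPR loss KIF20A (0.11 ± 0.14) and CCNF (0.17 ± 0.14) were not called, and their difference from NUP153 loss was not called either. After RANGAP1 loss CCNF (0.41 ± 0.06) was called higher and KIF20A (0.14 ± 0.09) was not called.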

How the data were processed

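Total RNA depleted of ribosomal RNA was sequenced from 3 separate cultures per group, as the study's methods describe, so that p-values measure the spread between cultures of 1 line. The authors used STAR for alignment (GRCh38) and featureCounts for counting, and deposited the raw counts of each gene. The submitters' processing notes name CASAVA 1.8.2, STAR 2.6.1c and featureCounts 1.5.2, and whether counting used strand is not given in the sources used here. Gene names and types came from GENCODE release 44, matched by identifier for 56948 of 58051 genes (1103 were not matched).

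Genes with over 1 CPM in at least 4 of the 60 libraries without ActinomycinD were tested (17812 genes, of which 996 have no count in the 6 libraries of the main comparison, and which hold at least 99.8% of counts). Counts were normalized by TMM (edgeR 4.0.16, R 4.3.3, factors 0.968 to 1.03) and tested with glmQLFit and glmQLFTest with Benjamini-Hochberg adjustment. The 8 h and untreated libraries were fitted alone, the 8 h against 2 h contrast in all 9 libraries of the line, and differences between lines as the interaction of line and auxin in 12 libraries. Calls required adjusted p below 0.05 with a change of 1.3-fold or more or 0.7-fold or less, with no fold asked of interactions, and genes called in untagged DLD-1 cells were removed from comparisons with untreated cells. The standard error of a log2 fold change is its size divided by the square root of the F statistic.

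Named genes were the 12 protein-coding and 3 other called genes with the largest changes in each direction, among genes averaging 50 counts or more whose groups did not overlap, the 5 in each direction between 8 h and 2 h, the 4 in each direction per difference between lines, the basket genes, called members of the gene lists and the genes called at 2 h. Some of these genes are not reported here. Other genes were added after their values were seen. Members and lists were chosen with earlier results of these data known. Alternatives were other normalizations, filters and folds, DESeq2 1.42.0, more libraries in the fit, a block on replicate number and each library left out. The scripts were tested on simulated counts. The same replicate number in untreated and 8 h libraries did not mark shared deviations (correlations −0.496, 0.332 and −0.50), nor in every pair of the NUP50 (0.611, 0.0812 and 0.480) or TPR line (0.515, 0.0809 and 0.00126). In the RANGAP1 line it did (0.538, 0.238 and 0.641), so the pairing there comes from the data. Untreated and 8 h libraries of different number in the NUP153-AID line had correlations from −0.556 (untreated replicate 2 with auxin 8 h replicate 1) to 0.711 (untreated replicate 3 with auxin 8 h replicate 1). Whether those libraries pair in another order was not tested.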

Additional observations from a re-analysis of the deposited data

Results flagged for a closer look

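The response to NUP153 loss for 8 h differed, by the interaction test of edgeR, from that to NUP50 loss for 50 genes, to TPR loss for 1820 genes and to RANGAP1 loss for 1861 genes. Values below are the log2 fold change after NUP153 loss minus that in the other line.

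Against NUP50 loss, the 4 largest in each direction were CGAS (3.09), SPIN4 (1.31), TSPYL4 (1.28) and HERPUD2-AS1 (1.23), and FAM53A (−2.10), LIF (−1.29), PARD6B (−0.98) and GNB1L (−0.98). CGAS, a sensor of cytosolic DNA, had only 3 counts summed over the untreated and 29 over the 8 h NUP153-AID libraries, against 724 and 735 in NUP50-AID cells, so it passed the filter through the other line.

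Against TPR loss, those reported here were HOXB5 (2.51), ZNF488 (2.43), LINC01124 (2.42) and RIMBP3 (2.40), and CYP1A1 (−3.62), ANKRD1 (−3.62) and GDF15 (−3.60). CYP1A1 did not fall, with its own log2 fold changes at 2.16 after NUP153, 5.76 after TPR and 6.28 after RANGAP1 loss. It is among the genes called in untagged DLD-1 cells. ANKRD1 spread widely in the AID-TPR auxin 8 h libraries, at 15.1, 2.34 and 7.54 CPM.

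Against RANGAP1 loss, they were ENSG00000256116 (4.08), CGAS (3.17), ENSG00000241357 (3.16) and FOS (3.01), and ENSG00000279443 (−4.78), ENSG00000257524 (−4.53), CYP1A1 (−4.13) and ZNF182 (−4.07). Most of these rest on libraries of 1 line. ENSG00000256116 had 0 counts in untreated and 6 in 8 h NUP153-AID libraries against 1171 and 1186 in RANGAP1-AID libraries, ENSG00000241357 had 1 and 13 against 1367 and 1601, and CGAS 512 and 546 in RANGAP1-AID libraries. ENSG00000257524 had 9 and 0 against 1870 and 2032, and ZNF182 had 8 and 0 against 488 and 433. ENSG00000279443 had 405 and 419 counts in NUP153-AID libraries against 0 and 10. The fitted values of genes with a group at 0 depend on the prior count and are no bounds. The part in these values of how each line was counted was not tested.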

How the results depend on the processing

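The count of 235 genes called after 8 h moved by over 1.5 times to 391 with DESeq2, 766 without a filter on low counts (35874 genes tested) and 435 with 60 libraries in one fit. It also moved by over 1.5 times to 79 with a fold of 2 in both directions and to 74 with a block on replicate number. It moved by less with the other normalizations, filters and fits tried on all 6 libraries. Leaving out 1 library gave 16 to 447. Between 8 h and 2 h the count was 919 without a filter and 172 to 548 with 1 library left out. The difference from NUP50 loss was called for 202 genes with DESeq2, 260 without a filter and 30 to 67 with 1 library left out, that from TPR loss for 2732 with DESeq2 and 701 to 4088 with 1 library left out, and that from RANGAP1 loss for 1262 to 2072 with 1 library left out. Of 93 gene results recomputed, no called value changed sign, and those of ANKRD13C, EGR1 and NUP153, which were not called, did in at least 1 alternative. The cause of these shifts was not tested, apart from the number of genes tested without a filter and of libraries fitted.

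With the replicate number as a block, 74 genes were called after 8 h and 359 between 8 h and 2 h, and 50, 1401 and 1990 for the differences from NUP50, TPR and RANGAP1 loss, of named results 27 of 93 no longer passing. Same-numbered libraries of the NUP153, NUP50 and TPR lines did not all correlate above 0.1, so there the numbers are not known to pair the samples. In the RANGAP1 line they did, and a block in that line alone, chosen after seeing the data, gave 3161 calls (1675 higher and 1486 lower) for RANGAP1 loss and 2388 for its difference from NUP153 loss (990 with a larger value after NUP153 loss and 1398 with a smaller one), both within 1.5 times of the counts without it.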

Other observations

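Further genes of cell division, chosen after their values were seen, were called higher after 8 h. BIRC5, the survivin subunit of the chromosomal passenger complex, stood at 276, 282 and 280 CPM untreated and 374, 388 and 356 CPM at 8 h (log2 fold change 0.41), and its partners INCENP and CDCA8 had log2 fold changes of 0.45 and 0.62. GTSE1 (0.60), a microtubule regulator, ESPL1 (0.58), the separase that cuts cohesin, CDC25C (0.41), a phosphatase that activates CDK1, and KIF2C (0.40), a kinesin that depolymerises microtubules, were called in the same direction.

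Genes of the HOX clusters were also picked out after their values were seen. Besides HOXB5, HOXA4 stood at 0.321, 0.172 and 0.152 CPM untreated and 0.653, 1.20 and 0.875 CPM at 8 h (2.08), and HOXA9 at 36.9, 33.5 and 31.6 CPM and 44.3, 47.8 and 44.1 CPM (0.42). The lncRNAs HOTTIP, at 20.6, 18.5 and 19.9 CPM and 29.1, 27 and 29.9 CPM (0.54), and HOXB-AS3 (0.38) were called higher too. HES1, a repressor that Notch induces, stood at 82, 65.7 and 82.6 CPM and at 120, 138 and 119 CPM (0.71). Among lower genes were BDNF, a neurotrophin, at 18.5, 17.7 and 16.7 CPM and 9.14, 10.7 and 9.45 CPM (−0.85), and the nutrient transporters SLC38A2 (−0.90), which carries amino acids, and SLC2A1 (−0.56), which carries glucose.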
